A study of Mus musculus with 6 samples.

Results

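The cyclic nucleotide phosphodiesterases described here are 10 genes, Pde1a, Pde1c, Pde2a, Pde3a, Pde3b, Pde4a, Pde4b, Pde4d, Pde5a and Pde10a, of 18193 genes named on the array. They are measured by 32 of the 45037 non-control probe sets, namely all those whose platform annotation names exactly 1 gene and it is one of these. The genes were picked with their differences between the array labels already known, so those differences are described below without a test. The hearts came from C57BL/6 mouse embryos at E12.5 (a stage in days of embryonic development), and 6 Affymetrix 3' arrays were run. Of these, 3 arrays are labelled Rhau KO, for hearts with Rhau deleted, and 3 are labelled wildtype. The gene Dhx36, called Rhau in the labels, encodes a helicase that unwinds G-quadruplexes, which are stacked structures of guanine-rich RNA or DNA. Which stretch of the gene was deleted, and in which cells, is not stated in the labels. The design text counts 3 hearts per group and speaks of 6 RNA samples, and nothing in the labels says whether hearts came from separate litters, so the spread between arrays may be partly technical.

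Cyclic AMP and cyclic GMP are small messengers made by cyclases in response to hormones, neurotransmitters, nitric oxide and natriuretic peptides. Phosphodiesterases end the signal by hydrolysing the messenger. In heart muscle they set the rate and force of beating by limiting how far cyclic AMP reaches its kinase, and the families differ in which messenger they cleave and in what regulates them. Drugs against members of the family are in clinical use, among them milrinone for PDE3 enzymes and sildenafil for PDE5.

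Promoter stretches are shown for 3 of the genes whose groups of arrays lay apart: Pde10a, with the largest difference among the genes' probe sets above the signal filter described below, and Pde4d and Pde5a, which differed the other way. They are the 250 bases before an annotated start in RefSeq (build GRCm38.p6, plus strand, 5′ to 3′); each gene can also start elsewhere. The table held 23 such starts for 8 of the 10 genes, all but Pde3a and Pde3b. Capitals mark stretches with at least 4 runs of 3 or more G, or 3 or more C where the G runs lie on the other strand, spaced by 1 to 7 bases, the letter pattern from which G-quadruplexes can form.
Pde10a, chr17:8801495-8801744: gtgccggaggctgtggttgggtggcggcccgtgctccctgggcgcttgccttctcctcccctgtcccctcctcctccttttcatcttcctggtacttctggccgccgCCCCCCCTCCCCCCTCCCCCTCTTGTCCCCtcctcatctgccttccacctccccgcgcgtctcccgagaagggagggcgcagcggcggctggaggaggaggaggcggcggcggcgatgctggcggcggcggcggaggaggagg
Pde4d, chr13:108653927-108654176: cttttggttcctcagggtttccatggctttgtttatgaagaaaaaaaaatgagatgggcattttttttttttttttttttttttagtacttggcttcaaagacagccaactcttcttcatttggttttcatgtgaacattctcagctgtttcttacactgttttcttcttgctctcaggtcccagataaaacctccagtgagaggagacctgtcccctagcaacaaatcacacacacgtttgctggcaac
Pde5a, chr3:122728908-122729157: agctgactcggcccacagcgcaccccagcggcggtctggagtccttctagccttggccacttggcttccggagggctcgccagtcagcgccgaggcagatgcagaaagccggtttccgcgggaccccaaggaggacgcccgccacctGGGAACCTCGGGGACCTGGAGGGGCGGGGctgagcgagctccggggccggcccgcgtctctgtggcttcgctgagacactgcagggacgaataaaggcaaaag
The G-run pattern, searched on both strands, was present in the Pde10a and Pde5a stretches and in none of the Pde4d letters shown. In all it was found in 8 of the 23 windows, belonging to Pde10a, Pde1c, Pde2a, Pde4a and Pde5a, and in 16.7% of 32851 promoter windows of the same length. The cyclic AMP response element TGACGTCA was found in 0 of the 23 windows and in 1.55% of all windows. Its shorter form TGACG, which lies within TGACGTCA, was found on either strand in 3 of the 23 (Pde1a, Pde4a and Pde4b) and in 17.8% of all. The NK2-type homeobox pattern TNAAGTG was found on either strand in 3 of the 23 (Pde1a and Pde2a) and in 10.1% of all. A match of letters describes the sequence, and it shows no binding.

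Before the results, the arrays themselves need description. The helicase transcript went against the labels: on its brightest probe set Dhx36 was at 10.10, 10.48 and 10.23 (log2 signal) in the arrays labelled Rhau KO, against 8.99, 8.88 and 8.71 in those labelled wildtype, and its other probe sets were also higher under the Rhau KO label, by 1.10 and 0.90. A probe set outside the deleted part would not show the deletion, and where these probe sets lie is not stated in the labels. Whether labels or samples were exchanged was not tested. Every direction below is that of the labels as deposited, and an exchange of the groups would reverse it. Sex-linked signal differed with the label too. Set to 100% on the array where it was strongest, the Y-linked signal averaged over Eif2s3y, Kdm5d and Uty was 59.6, 82.8 and 100% in Rhau KO-labelled replicates 1 to 3, against 1.23, 2.04 and 39.3% in those labelled wildtype. On the same kind of scale Xist was at 61.1, 35.8 and 0.232% under the Rhau KO label and 100, 98.0 and 77.2% under the wildtype label. Replicates 1 and 2 labelled Rhau KO and replicate 3 labelled wildtype thus carried both signals. For probe sets named below, differences are in part also given from a fit that includes Y-linked signal as a covariate, where the median standard error of a difference was 0.27, against 0.12 without it. The 8 heart muscle markers all lay above the signal filter, among them Tnnt2 and Actc1. Trimming 2% at each end, the linear values of each array averaged 500, and array data carry no read depth, so the number of arrays limits the precision.

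Of the 32 phosphodiesterase probe sets, 17 had a mean log2 signal over the 6 arrays above 5.90, the level below which the lowest 40% of all probe sets lie, and 15 did not. The nearest below it were probe sets of Pde4b (1444731_at, mean 5.89) and Pde3a (1450284_at, mean 5.83), and the nearest above it a probe set of Pde1c (1436251_at, mean 6.34). For 3 of the 17 every array labelled Rhau KO lay above every array labelled wildtype, and for 3 it lay below, where 19.4% and 14.5% of the 27022 probe sets above the filter did so (33.9% in either direction). A difference of more than 0.5 was seen for 2 upward and 2 downward, where 5.69% and 4.38% of all probe sets passed that size. As the genes were picked on this contrast, these counts are a description of the family. The median difference was 0.17 over the 17 probe sets and 0.04 over all 27022, and the median size of a difference was 0.28 against 0.17.

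**Figure D1:**
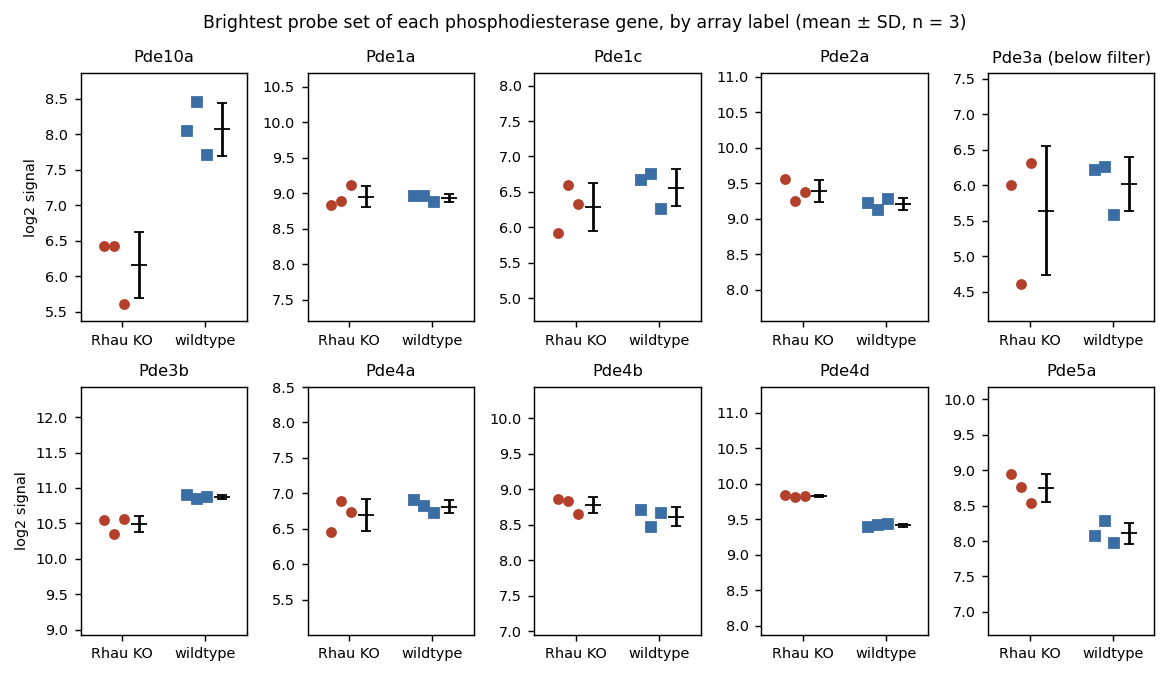
For each phosphodiesterase gene, log2 signal of its brightest probe set on the 3 arrays labelled Rhau KO (red circles) and the 3 labelled wildtype (blue squares), with mean ± SD; every panel spans the same range of log2 signal around its own mean. The groups lie apart for Pde10a and Pde3b, lower under the Rhau KO label, and for Pde4d and Pde5a, higher under it.

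Pde10a encodes an enzyme that cleaves both cyclic AMP and cyclic GMP and is known for its high level in neurons of the striatum. Its brightest probe set (1419389_at) had signals of 6.42, 6.43 and 5.61 in the 3 Rhau KO-labelled arrays, against 8.05, 8.45 and 7.71 in those labelled wildtype. The groups were separated by 1.28 between their nearest arrays. Means were 6.15 ± 0.47 under the Rhau KO label and 8.07 ± 0.37 under the wildtype label (SD, n = 3 each), a difference of -1.92 (SE 0.26), or a 3.78-fold lower level. It was the tenth lowest difference of all probe sets above the filter, of which 0.104% differed by at least as much in either direction. Replicate 3 labelled Rhau KO, which carried the most Y-linked signal and the least Xist, lay under the filter level. The difference was -1.65 without that array, -0.83 once the Y-linked signal was a covariate and -1.29 among the 3 arrays carrying Xist and Y-linked signal together. Adding 64 to the linear signal gave -1.29 as well. With the filter on the lowest 60%, at a log2 signal of 7.55, this probe set dropped out, as its mean was 7.11. The part of sex-linked signal in the difference was not tested.

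The remaining probe sets of Pde10a were dimmer. The only other one above the filter, 1439618_at, was at 5.99, 6.92 and 6.53 in the arrays labelled Rhau KO, against 6.93 to 7.02 in those labelled wildtype. Here the groups all but touched, with a gap of 0.0066, and the difference was -0.50 (SE 0.24). It ranged from -0.72 to -0.26 when single arrays were left out, the smallest size being that without replicate 1 labelled Rhau KO. With Y-linked signal in the fit it was -0.99. The 3 probe sets below the filter differed by -0.22 to -1.29, with overlapping groups. Signals that low are not told apart from background, so their direction is not read. The 5 other genes whose probe sets ran most alike with 1419389_at over the 6 arrays, of 22794 probe sets compared, were Nsd1, Fabp12, Cdh15, Rassf1 and Atxn1l, with Pearson's r from 0.997 to 0.994. The points share the same arrays and the step between the 2 labels.

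The PDE3 enzymes cleave cyclic AMP and are inhibited by cyclic GMP. Pde3b, known for its part in insulin action in fat cells and also present in heart muscle, has 1 probe set (1433694_at). It was at 10.55, 10.35 and 10.56 in the arrays labelled Rhau KO, against 10.91, 10.85 and 10.87 in those labelled wildtype. The groups did not overlap, and the arrays labelled wildtype lay within 0.06 of each other. The difference was -0.39 (SE 0.069), a 1.31-fold lower level. It was -0.38 with Y-linked signal in the fit and -0.42 within the arrays with both signals. The median standard error with Y-linked signal, 0.27, is that over all probe sets tested and not that of this one probe set.

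Pde3a encodes the PDE3 isoform that predominates in heart muscle and that milrinone acts on. None of its 3 probe sets reached the filter. The brightest, 1450284_at, was at 6.01, 4.61 and 6.31 in the arrays labelled Rhau KO, against 6.21, 6.25 and 5.58 in those labelled wildtype, and the groups overlapped. The others differed by 1.17 (1431913_a_at) and 2.64 (1431914_at), the last with separate groups, at 4.84, 4.92 and 4.46 under the Rhau KO label and 0.58, 1.78 and 3.94 under the wildtype label. Signals this low are not told apart from background, and among all probe sets below the filter the median size of a difference was 0.52. No level is therefore given for Pde3a.

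The PDE4 enzymes are specific to cyclic AMP and are the targets of rolipram. Pde4d, whose product is found at the ryanodine receptor of heart muscle and beside beta-adrenergic receptors, had the tightest arrays of the family. Its bright probe set (1435280_at) was at 9.84, 9.82 and 9.83 in the arrays labelled Rhau KO, against 9.39, 9.42 and 9.44 in those labelled wildtype. The SD was 0.012 under the Rhau KO label and 0.026 under the wildtype label, and the groups lay 0.38 apart at their nearest arrays. The difference of 0.41 (SE 0.068), a 1.33-fold higher level, changed little with any array left out, from 0.40 to 0.43. It was 0.39 with Y-linked signal in the fit, where the median standard error over all probe sets tested was 0.27. Median centring lowered it to 0.35, and adding 64 to the linear signal to 0.38. The other Pde4d probe set (1459311_at) lay far below the filter, at a mean of 3.20.

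Pde4b, the PDE4 enzyme known for its part in immune cells and in the control of cardiac calcium current, has 6 probe sets, of which 3 passed the filter. The brightest, 1422473_at, was at 8.86, 8.84 and 8.65 under the Rhau KO label and at 8.71, 8.47 and 8.67 under the wildtype label, and the groups overlapped (difference 0.17, SE 0.11, and 0.093 without replicate 2 labelled wildtype). A dimmer one, 1442700_at, had separate groups, at 8.63, 8.59 and 8.48 against 8.33, 8.43 and 8.34 in the arrays labelled Rhau KO and wildtype, with a gap of 0.047 and a difference of 0.20 (SE 0.10), which was 0.34 with Y-linked signal in the fit and 0.13 with median centring. The third, 1422474_at, differed by 0.0043. Pde4a was measured by 1 dim probe set (1421535_a_at), at 6.46, 6.90 and 6.74 in the arrays labelled Rhau KO, against 6.90, 6.82 and 6.72 in those labelled wildtype, with a difference of -0.11 (SE 0.19) that was 0.0081 without replicate 1 and -0.21 without replicate 2 labelled Rhau KO, -0.07 without replicate 1 labelled wildtype, and -0.22 with Y-linked signal in the fit. Among the brightest probe sets of the PDE4 genes, the groups lay apart for Pde4d and overlapped for Pde4a and Pde4b, given here as a description.

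Pde5a encodes the cyclic GMP-specific phosphodiesterase of smooth muscle and lung, the target of sildenafil. All 3 of its probe sets passed the filter and all were higher under the Rhau KO label. On the brightest, 1458341_x_at, signals were 8.94, 8.76 and 8.54 in the arrays labelled Rhau KO, against 8.07, 8.28 and 7.98 in those labelled wildtype. The groups did not overlap, and the difference was 0.64 (SE 0.13), a 1.56-fold higher level. Probe sets with this suffix (x_at) can share sequence with other transcripts. The remaining ones, 1455970_at and 1460118_at, had overlapping groups and differences of 0.40 (SE 0.16) and 0.37 (SE 0.17). Fitted with Y-linked signal the brightest differed by 1.13, and among the arrays with both signals by 0.87.

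Markers of smooth muscle and endothelium, cell types in which Pde5a and Pde2a are known to be active, were also measured. Here and below, rose and fell stand for limma's adjusted p under 0.05 in the fit across all probe sets, where 6.75% of probe sets were called higher and 6.88% lower under the Rhau KO label. These are 1824 higher and 1858 lower on the values as deposited, and with median centring of the arrays the split was 1007 higher and 2528 lower. With only the brightest probe set of each gene in the fit, the kind used for the markers, 1018 of 12416 were higher and 1336 lower. All 5 smooth muscle markers were above the filter; 0 of them rose and 1 fell, and their linear signals summed to 29974 to 33631 in the arrays labelled Rhau KO, against 34003 to 36825 in those labelled wildtype. Of 8 endothelial markers, all above the filter, 4 rose and 0 fell, and the sums were 12224 to 13411 under the Rhau KO label and 10462 to 11391 under the wildtype label. The red cell list of 7 measured markers had 5 that fell and 0 that rose, with sums of 70953 to 88937 under the Rhau KO label and 92791 to 99071 under the wildtype label. Neural crest and neuronal markers, 6 measured, had 3 that rose and 0 that fell, with sums of 4775 to 4979 under the Rhau KO label and 3126 to 3236 under the wildtype label. Those that rose were Ednrb (0.78), Elavl4 (0.63) and Gap43 (0.32). Ednrb was by far the brightest, so the sums mostly follow it. Stmn2 (0.35), Sox10 (0.04) and Tubb3 (-0.38) did not pass. For macrophages the counts were 2 higher and 0 lower of 6, with sums of 3172 to 3871 against 2244 to 2306 in the arrays labelled Rhau KO and wildtype. The 2 were Lyz2, with by far the largest difference at 2.98, and Mrc1 at 0.43. Csf1r (0.04), Cd68 (0.24), Adgre1 (0.18) and Ptprc (0.34) did not pass, so the sums mostly follow Lyz2. Of 8 heart muscle markers 0 rose and 3 fell, with sums of 198598 to 232334 under the Rhau KO label and 230352 to 240612 under the wildtype label. Of 8 epicardial and fibroblast markers 1 rose and 1 fell, with sums of 20829 to 23196 under the Rhau KO label and 22832 to 24833 under the wildtype label. No marker of these lists was at 0 on every array. In whole hearts, fewer cells of a type and less RNA per cell cannot be told apart, and the part of these cells in the phosphodiesterase differences was not tested.

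Pde2a encodes a phosphodiesterase that cyclic GMP stimulates and that cleaves both cyclic AMP and cyclic GMP, present in endothelium and heart muscle. Its brightest probe set (1447707_s_at) was at 9.56, 9.25 and 9.38 in the arrays labelled Rhau KO, against 9.22, 9.12 and 9.28 in those labelled wildtype. The groups overlapped, and the difference of 0.19 (SE 0.096) was near the spread between arrays, falling to 0.11 when replicate 1 labelled Rhau KO was left out. The dimmest, 1452202_at, was at 6.90, 7.35 and 7.48 under the Rhau KO label and at 6.14, 6.97 and 7.09 under the wildtype label, also overlapping. Its difference of 0.51 (SE 0.27) was 0.21 without replicate 1 labelled wildtype and -0.45 with Y-linked signal in the fit, so its direction is not settled. The remaining probe set, 1447708_x_at, differed by -0.0048.

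The PDE1 enzymes are switched on by calcium and calmodulin and cleave both messengers. Pde1a (1449298_a_at) was at 8.84, 8.90 and 9.12 in the arrays labelled Rhau KO, against 8.97, 8.97 and 8.87 in those labelled wildtype. Its difference of 0.015 (SE 0.099) was the smallest among the brightest probe sets of the 9 genes above the filter. Pde1c, which is known from proliferating smooth muscle and from heart muscle, has 6 probe sets, of which 2 passed the filter and pointed apart. The brighter, 1440374_at, was at 5.93, 6.60 and 6.33 under the Rhau KO label and at 6.67, 6.75 and 6.26 under the wildtype label, a difference of -0.28 (SE 0.25). Single arrays moved this value: it was -0.096 without replicate 1 and -0.43 without replicate 2 labelled Rhau KO, and -0.18 without replicate 2 and -0.42 without replicate 3 labelled wildtype. The other, 1436251_at, differed by 0.19 (SE 0.23), and both had overlapping groups. The 4 Pde1c probe sets below the filter differed by 0.0091 to 1.07.

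**Figure D2:**
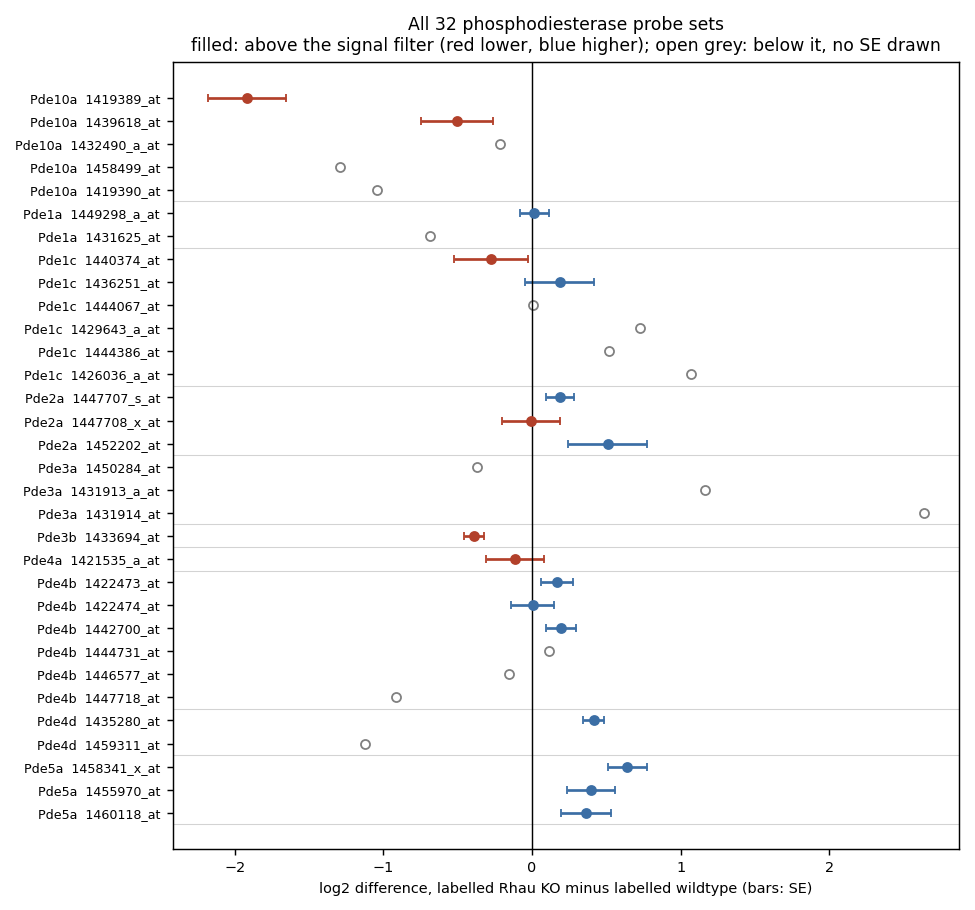
Log2 difference (labelled Rhau KO minus labelled wildtype) of all 32 phosphodiesterase probe sets, grouped by gene, brightest first. Filled points with SE bars are the 17 probe sets above the signal filter, and open grey points the 15 below it. The filled points of Pde10a and Pde3b lie left of 0 and those of Pde4d and Pde5a right of it, while the open points spread widely.

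Over the fits without 1 array the brightest Pde10a probe set ranged from -2.10 to -1.65 and that of Pde5a from 0.54 to 0.74; as their groups do not overlap, no single array could turn the sign. Pde1a lay between -0.07 and 0.07 over the arrays left out and turned sign with median centring and quantile normalization too, so no direction is given for it.

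**Figure D3:**
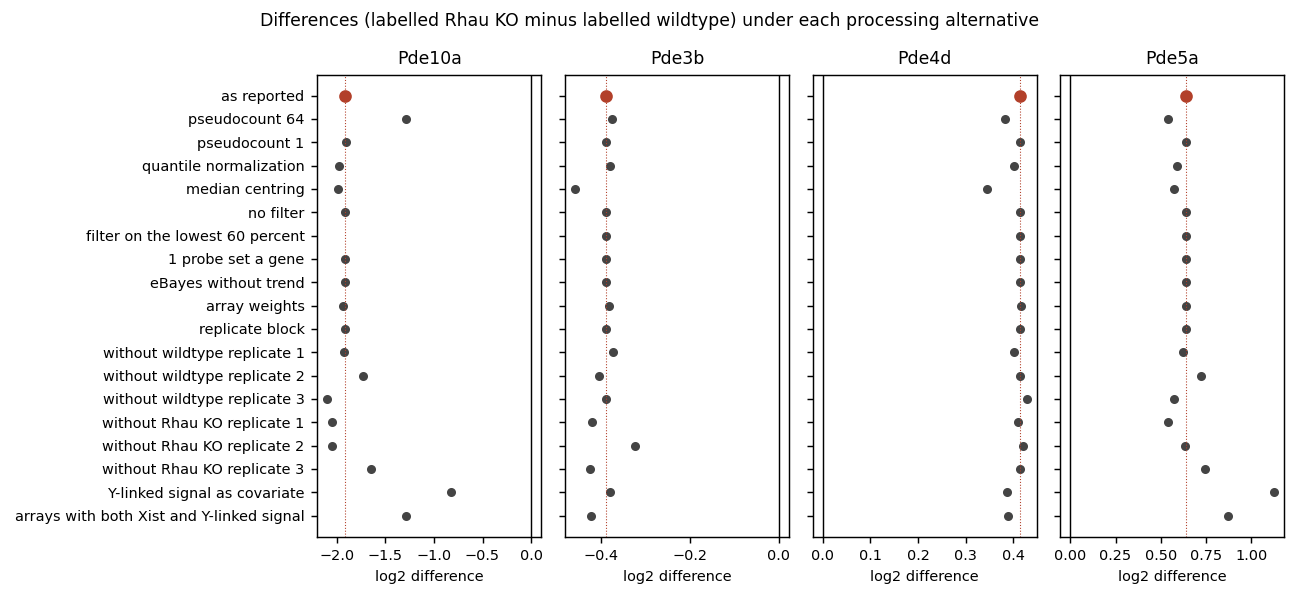
Log2 difference (labelled Rhau KO minus labelled wildtype) of the brightest probe sets of Pde10a, Pde3b, Pde4d and Pde5a under each processing alternative, with the reported value in red at the top and a dotted line; the solid line is 0 and the axes differ in range. Pde3b ranges from -0.46 to -0.32 and Pde4d from 0.35 to 0.43, each with 1 end at median centring. Pde10a and Pde5a move most with Y-linked signal in the fit, to -0.83 and 1.13. Pde10a has no point for the filter on the lowest 60%, as its probe set lies below that level.

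The rest of cyclic nucleotide signalling was followed through 86 further genes in 5 lists taken from general knowledge of the pathway. The lists were chosen with earlier results of these data known, so their counts and adjusted p values are a description. Of the 86 genes, 73 had a probe set naming them alone and 57 had one above the filter. In the fit across all probe sets, 5 of the 57 rose and 6 fell under the Rhau KO label, beside 13.6% called in either direction over all probe sets tested. That share also covers the dimmer probe sets of a gene, while each of the 57 is a gene's brightest. With 1 probe set a gene in the fit, 1018 of 12416 were higher and 1336 lower, and of the 57 genes 6 were higher and 6 lower. The median difference of the 57 genes was 0.02, against 0.04 over all probe sets. The number that rose was 3 when replicate 1 or 2 labelled wildtype or replicate 1 labelled Rhau KO was left out, 2 without replicate 3 labelled wildtype, and 1 when replicate 3 labelled Rhau KO was left out. With Y-linked signal in the fit 0 rose and 1 fell, and 5 of the 11 differences moved by over 1.5 times: Adcy9 stood at -1.41, Gucy1a2 at 1.38, Nos3 at 0.55, Popdc2 at -0.24 and Abcc4 at 0.39. Among the 3 arrays with both signals 1 rose and 2 fell.

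Other phosphodiesterases had 8 measured members, and 0 passed by limma in either direction, with 1 at an unadjusted p under 0.05. Their differences lay between -0.29 for Pde11a and 0.33 for Pde8a. Pde7b, a cyclic AMP-specific enzyme, was at 10.29, 10.23 and 10.27 in the arrays labelled Rhau KO, against 10.10, 10.01 and 10.15 in those labelled wildtype. Its groups did not overlap, the difference was 0.17 (SE 0.066), and limma's adjusted p was 0.107. Pde6d, the prenyl-binding subunit of the retinal enzyme, differed by -0.04 (SE 0.078; limma, adjusted p = 0.799).

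Cyclases changed in both directions, with 2 of 12 measured genes higher and 3 lower. Adcy6, a calcium-inhibited adenylyl cyclase that is a main isoform of heart muscle, was at 11.91, 11.80 and 11.86 in the arrays labelled Rhau KO, against 12.59, 12.54 and 12.58 in those labelled wildtype. It fell 1.64-fold (difference -0.72, SE 0.050; limma, adjusted p = 2.00e-05), and it was the only one of the 57 genes that passed with Y-linked signal in the fit, at -0.68. Adcy9, an adenylyl cyclase little activated by forskolin, fell by 0.79 (SE 0.16; limma, adjusted p = 0.00907), and its 3 other probe sets above the filter fell as well, by 0.79 to 1.11. Adcy7, an adenylyl cyclase known from blood cells, rose by 0.92 (SE 0.20; limma, adjusted p = 0.0132), a call lost without replicate 3 labelled Rhau KO at 0.80. Of the subunits of the nitric oxide receptor, soluble guanylyl cyclase, Gucy1a2 rose by 0.83 (SE 0.23; limma, adjusted p = 0.0400). Gucy1b1, named here after its value was seen, fell by 0.20 (SE 0.056; limma, adjusted p = 0.0381). Both calls were lost in most fits without 1 array, Gucy1a2 keeping it only without replicate 2 labelled wildtype and Gucy1b1 in none.

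Among receptors, G proteins and nitric oxide synthases, 1 of 7 measured genes rose and 0 fell. Nos3, the endothelial nitric oxide synthase, was at 10.30, 10.12 and 10.25 under the Rhau KO label and at 10.10, 9.81 and 9.78 under the wildtype label. Its difference was 0.32 (SE 0.094; limma, adjusted p = 0.0444), close to the threshold, and of the 6 fits without 1 array 2 passed, the one lacking replicate 1 labelled wildtype and the one lacking replicate 2 labelled Rhau KO. With median centring the Nos3 call was lost as well, at 0.26 (limma, adjusted p = 0.135). Of the 8 endothelial markers, 4 rose in the same arrays, while Pecam1 (0.07), Tek (0.12), Flt1 (0.20) and Emcn (-0.03) did not pass. The part of endothelial cells in the Nos3 difference was not tested.

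Effectors had 1 higher and 2 lower of 16 measured. Prkar2b, a regulatory subunit of the cyclic AMP-dependent kinase, rose by 0.66 (SE 0.11; limma, adjusted p = 0.00324), with signals of 8.70, 8.80 and 8.57 in the arrays labelled Rhau KO and 7.97 to 8.11 in those labelled wildtype. The gene has 2 further probe sets above the filter, with differences of 0.11 and 0.60, and 1 of them passed. Popdc2, a cyclic AMP-binding membrane protein of heart muscle, fell by 0.40 (SE 0.063; limma, adjusted p = 0.00241). Prkg1, the cyclic GMP-dependent kinase, fell by 0.24 (SE 0.063; limma, adjusted p = 0.0283), a call lost in each of the 6 fits without 1 array, and a second probe set of the gene, at -0.10, did not pass. The catalytic subunit genes Prkaca and Prkacb did not pass, at -0.02 and -0.11.

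Anchoring and export genes had 1 higher and 1 lower of 14. Akap11, which tethers the cyclic AMP-dependent kinase, was at 10.73, 10.69 and 10.67 in the arrays labelled Rhau KO, against 11.15, 11.19 and 11.11 in those labelled wildtype. It fell 1.37-fold (difference -0.45, SE 0.055; limma, adjusted p = 6.41e-04). Abcc4, a pump that exports cyclic nucleotides from cells, rose by 0.66 (SE 0.16; limma, adjusted p = 0.0235), a call kept without 1 array only when that was replicate 1 labelled Rhau KO. Pde4dip, the anchoring protein that binds PDE4D, differed by -0.02 and did not pass. The counts of all lists rest on each gene's brightest probe set, and 6 genes that did not pass on it had another probe set above the filter that did, as seen after their values were known. They were Adcy5 (-0.60 on the other probe set), Gnai2 (0.25), Bves (0.58), Akap2 (0.48), Akap13 (1 of 4 others, the highest at 0.69) and Akap9 (3 of 4 others, the highest at 1.37).

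**Figure D4:**
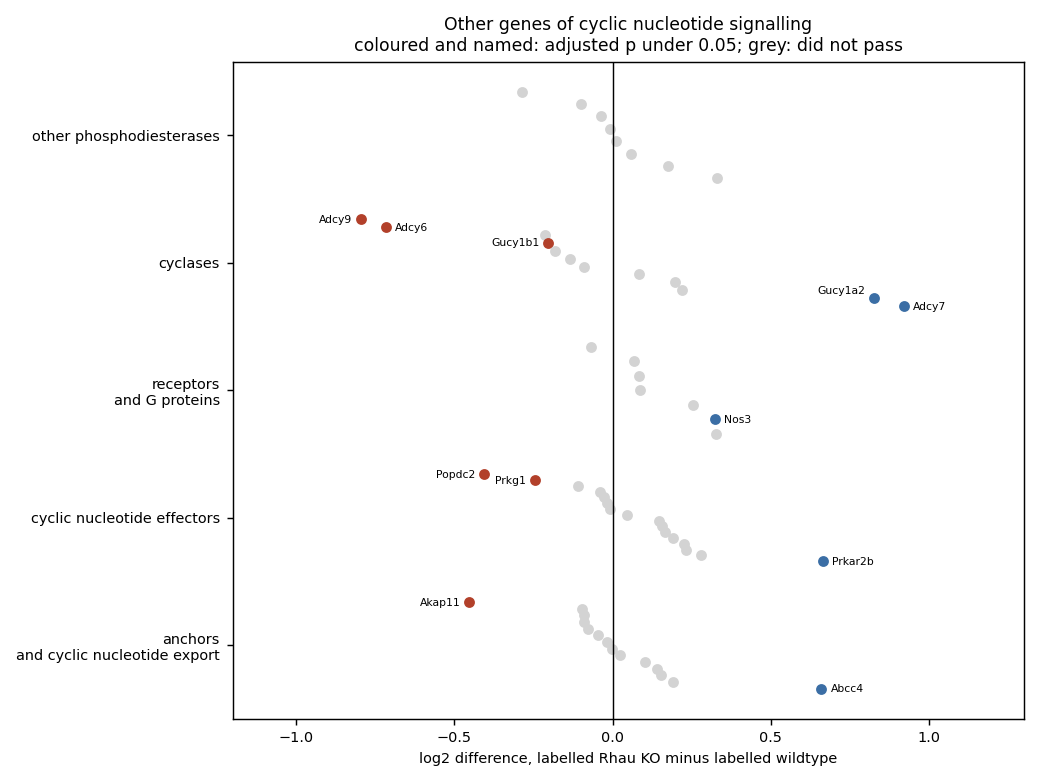
Log2 difference (labelled Rhau KO minus labelled wildtype) of the 57 measured genes in 5 further lists of cyclic nucleotide signalling, 1 point a gene, using the brightest probe set. The 11 coloured and named genes passed limma's adjusted p of 0.05, 5 to the right of 0 (blue) and 6 to the left (red), and grey points did not.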

How the data were processed

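Per the labels' protocols, total heart RNA was amplified to biotin-labelled cRNA, which was applied to Affymetrix 3' arrays. Values were deposited by the authors as 1 log2 signal per probe set and array, made with MAS5 per the submitters' processing notes (version: not given in the sources used here). They were used as deposited. All 6 columns were matched to a sample and 0 were left over. Of 45101 rows, 64 control probe sets were left out. The platform annotation names 1 gene for 34945 probe sets, several for 932 and none for 9160; Entrez identifiers of 34741 were found in RefSeq (GRCm38.p6).

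Differences, labelled Rhau KO minus labelled wildtype, were fitted with limma 3.58.1 in R 4.3.3 (lmFit, eBayes with trend) over the 27022 probe sets above the 40% signal filter, with Benjamini-Hochberg adjustment over all of them, two-sided, threshold 0.05. Folds are sizes on the linear scale. The probe set of highest mean stands for a gene in the pathway and marker lists. The procedure was also run on simulated arrays with independent normal noise. Those had no difference in sex-linked signal or array median between the labels, so they cannot show how the fit behaves with such differences. Genes and lists were chosen with earlier results of these data known. Named are each phosphodiesterase's brightest probe set, further ones with separate groups or a difference of at least 0.5, and up to 4 called genes a list or otherwise 2 of highest signal; others are named as chosen later or as single values. Alternatives are given in the closing section. No 2 arrays of a label were identical (at least 44993 of 45037 probe sets differed). Tables and figures were made with Python 3.11.15, pandas 2.3.3 and matplotlib 3.10.9.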

Additional observations from a re-analysis of the deposited data

How the results depend on the processing

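Over all probe sets, 1824 were called higher and 1858 lower. Leaving out single arrays gave 1046 to 1283 higher and 1139 to 1574 lower, with the low ends without replicate 1 labelled wildtype; the higher count also moved by over 1.5 times without replicates 2 (1132) and 3 (1064) labelled wildtype and replicate 1 labelled Rhau KO (1188), and the lower count without replicates 2 (1230) and 3 (1237) labelled wildtype. Median centring gave 1007 higher, 1 probe set a gene 1018 higher of fewer features, eBayes without trend 886 and 903, the Y-linked covariate 28 and 110, and the 3 arrays carrying Xist and Y-linked signal together, where the lone wildtype array is assumed to vary like the others, 501 and 515. The 5 higher and 6 lower pathway genes became 1 to 4 higher and 4 lower without single arrays; 3 were higher with median centring, no filter, a 60% filter or no trend; 0 rose and 1 fell with the Y-linked covariate, and 1 and 2 in the arrays with both signals. Phosphodiesterase probe sets past a difference of 0.5 numbered 2 higher and 2 lower, 1 to 3 and 1 to 2 without single arrays, 1 and 1 with a pseudocount of 64, 1 lower with a pseudocount of 1, 1 higher with quantile normalization, median centring or array weights, 7 and 7 without the filter and 1 and 0 with the 60% filter. Pde6d ranged from -0.11 to 0.016 without single arrays, its sign reversed without replicate 3 labelled wildtype. Apart from changes that follow from fewer features or arrays, the cause was not tested.

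Same-numbered arrays did not deviate together (correlations of deviations from the group means of -0.0003, 0.0416 and 0.0055 for replicates 1 to 3), so the numbers were not taken to pair the samples. With the replicate block 1684 probe sets were higher and 1760 lower, 4 pathway genes higher and 5 lower, and 2 phosphodiesterase probe sets each way past 0.5. Detection calls were not used here, so low signals are not told apart from background.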
